A study of Homo sapiens with 34 samples.

Results

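The genes described here are 10 components, targets and feedback regulators of JAK-STAT5 signalling, chosen by symbol from the deposited gene tables: the receptor chains IL7R and CRLF2, the transcription factors STAT5A and STAT5B, the feedback inhibitors CISH, SOCS1, SOCS2 and SOCS3, and the kinase genes PIM1 and PIM2. All 10 were listed in all 6 tables, among 13307 genes that every table lists and 17587 genes that at least 1 table lists. RNA was measured by sequencing in 3 human B-cell acute lymphoblastic leukaemia (B-ALL) lines, which the labels describe as NALM-6 with ETV6-PDGFRB, RS4;11 with MLL-AF4 (the MLL-AF4 line) and BV-173 with BCR-ABL. In each line, cells that carried an shRNA against CCND3 were set beside cells with a scrambled shRNA at day 4, both sorted after lentiviral transduction, and cells given 1 µM palbociclib, an inhibitor of the cyclin D-dependent kinases CDK4 and CDK6, were set beside DMSO-treated cells at day 3. The 34 samples fall into 12 groups, with 3 samples in each except for NALM-6 shCCND3 and BV-173 DMSO, which have 2. Each fusion is represented by 1 cell line, so a line and its fusion cannot be told apart, and the knockdown was made with 1 shRNA.

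Cytokine receptors such as the IL-7 receptor carry JAK kinases on their inner side. When the ligand binds, the JAKs phosphorylate STAT5A and STAT5B, which enter the nucleus and switch on genes that include CISH, members of the SOCS family and the PIM kinases. The CISH and SOCS proteins act back on the receptor and the JAKs and damp the signal. In B-cell precursors IL-7 receptor signalling supports survival and growth, and the BCR-ABL kinase is known to activate STAT5 without a cytokine. BV-173 is therefore set beside the other lines here.

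Each table holds 1 level per gene and group, scaled by the authors within the pair of groups, and the summed levels of a group lie between 17810468 and 20756235. The spread between samples of a group and the depth of a sample are therefore unknown here, and no test over samples was possible. Ratios were formed within a table. Levels were set across lines as parts per 1000000 of a group's sum (ppm), without a test, because the tables were scaled separately. The shRNA target CCND3 had log2 ratios of -2.04 in NALM-6, -2.27 in the MLL-AF4 line and -1.68 in BV-173. All 11 B-lymphoid marker genes reached a level of 10 in every group, with summed shares of 3203 to 6115 ppm. Of the T-lymphoid markers 1 of 6, LCK, reached that level in any group (summed share 4.91 to 79.6 ppm), of the myeloid markers 3 to 4 of 7 did (18.8 to 59.1 ppm), and of the 4 erythroid markers none did (0.00726 to 0.0892 ppm). ABL1 was highest in the BV-173 controls, at 197 and 222 ppm against 121 to 163 in the other lines' controls. BCR, the other partner of the BV-173 fusion, was lowest there, at 196 and 205 ppm against 213 to 386. In these bulk values, a lower level in every cell and fewer cells with the transcript cannot be told apart. PDGFRB, named in the NALM-6 label, was lowest in that line. Its control shares were 13.7 and 4.37 ppm in NALM-6, 213 and 143 in the MLL-AF4 line and 20.6 and 20.3 in BV-173. ETV6, its partner, had 78.4 and 76.2 ppm in NALM-6, 33.3 and 38.5 in the MLL-AF4 line and 54.5 and 79.9 in BV-173. KMT2A (MLL) and AFF1 (AF4) were highest in the MLL-AF4 line. KMT2A had 182 and 152 ppm there against at most 115 elsewhere, and AFF1 had 198 and 180 against at most 174. Values per gene do not resolve a fusion transcript.

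**Figure D1:**
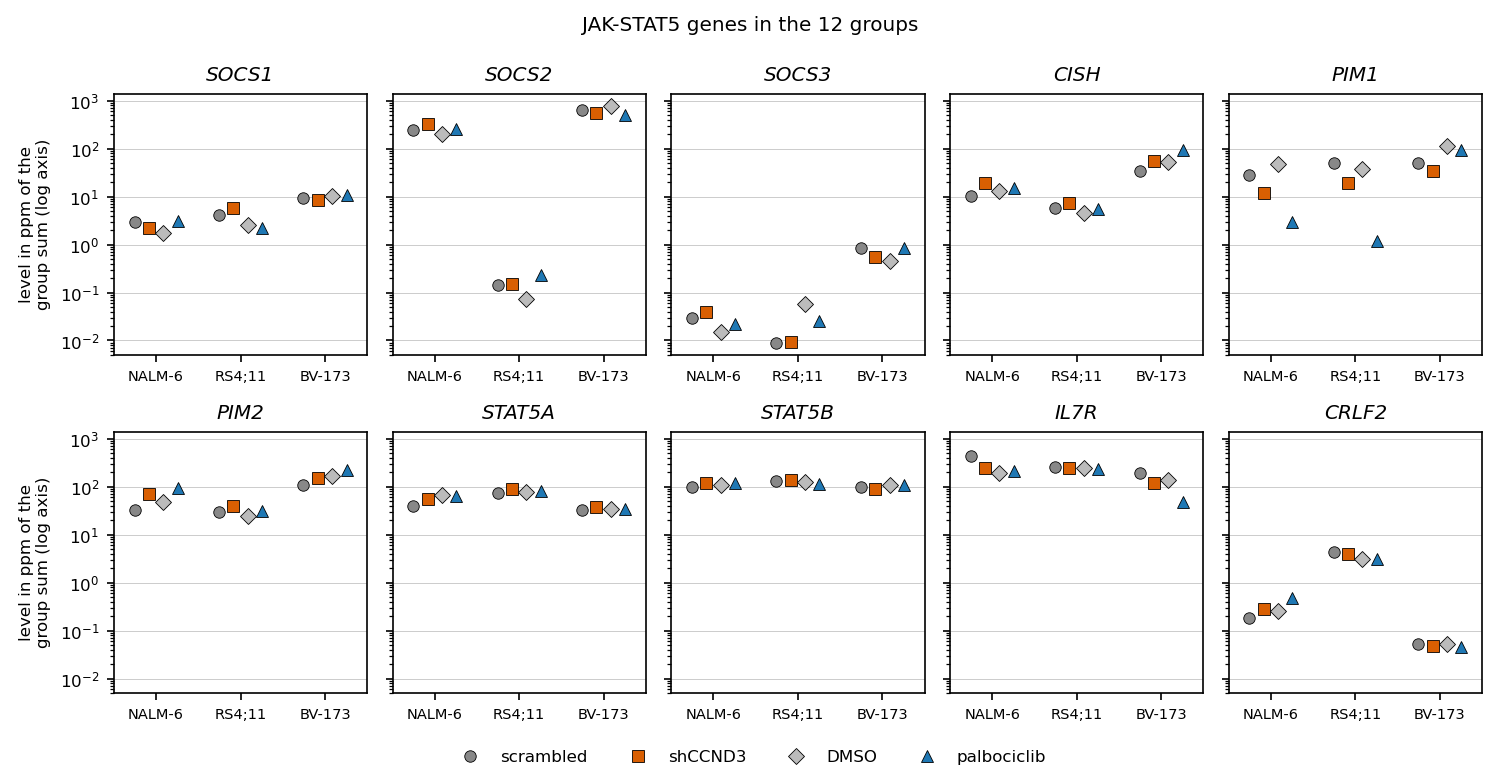
Level of each of the 10 genes in the 12 groups, in ppm of the group's summed levels on a log axis. Each point is the authors' value for 1 group, with no error available. SOCS2 spans from 0.0733 ppm in the RS4;11 DMSO group to 784 in the BV-173 DMSO group, STAT5B lies between 91.4 and 138 in all groups, and the palbociclib points of PIM1 lie far below the DMSO points in NALM-6 and RS4;11.

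In the control groups CISH, the 3 SOCS genes and PIM2 stood higher in BV-173 than in either other line. CISH (gene ID 1154, chromosome 3, 50606489 to 50611774), an SH2-domain protein that blocks STAT5 docking at cytokine receptors, stood at 33.7 (scrambled) and 51.9 (DMSO) ppm in BV-173. It stood at 10.4 and 13.3 in NALM-6 and at 5.75 and 4.64 in the MLL-AF4 line. The geometric mean of the BV-173 controls was thus 5.37-fold that of the other lines, 3.56-fold that of NALM-6 and 8.10-fold that of the MLL-AF4 line. Coordinates are those of GRCh38.p14. SOCS1 (gene ID 8651, chromosome 16, 11254417 to 11256204), which inhibits JAK kinases directly, had shares of 9.12 and 10.3 ppm in BV-173, 2.97 and 1.74 in NALM-6 and 4.15 and 2.56 in the MLL-AF4 line, a ratio of 3.56 for BV-173 over the other lines.

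SOCS2 (gene ID 8835, chromosome 12, 93569969 to 93626236), best known for its feedback on growth hormone signalling, had the widest range of the 10 genes. Its control shares were 627 and 784 ppm in BV-173, 242 and 205 in NALM-6, and 0.143 and 0.0733 in RS4;11. In BV-173 it ranked between percentiles 98.4 and 99.0 of the listed genes in the 4 groups, and in the MLL-AF4 line it ranked between percentiles 15.2 and 20.4. The ratio of BV-173 to the other lines, 147, therefore depends on the line chosen: it was 3.15 against NALM-6 and 6859 against the MLL-AF4 line, where the highest SOCS2 level was 4.61. SOCS3 (gene ID 9021, chromosome 17, 78356778 to 78360925), an inhibitor of gp130-type receptors, was low everywhere, with control shares of 0.846 and 0.453 ppm in BV-173, 0.0293 and 0.0151 in NALM-6 and 0.00868 and 0.0570 in the MLL-AF4 line. Its ratio for BV-173 over the others was 28.6, and the highest level in any group of the other lines was 1.13.

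The PIM genes encode serine/threonine kinases that promote survival and are classical STAT5 targets. PIM2 (gene ID 11040, chromosome X, 48913182 to 48919024) had control shares of 108 and 171 ppm in BV-173, 33.3 and 47.7 in NALM-6 and 29.9 and 24.2 in the MLL-AF4 line, a ratio of 4.16. PIM1 (gene ID 5292, chromosome 6, 37170152 to 37175428) had 51.2 and 113 in BV-173, 27.9 and 46.6 in NALM-6 and 50.4 and 37.4 in the MLL-AF4 line. The ratio for PIM1 was 1.92, and the scrambled controls of BV-173 and the MLL-AF4 line were nearly equal.

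The receptor and STAT5 genes did not share this order. IL7R (gene ID 3575, chromosome 5, 35856891 to 35879603), the alpha chain of the IL-7 receptor, had control shares of 192 and 136 ppm in BV-173, 441 and 196 in NALM-6 and 258 and 240 in the MLL-AF4 line, so that the other lines stood 1.67-fold above BV-173. CRLF2 (gene ID 64109, chromosome X, 1190490 to 1212649), which pairs with IL7R to bind TSLP, had 0.0515 and 0.0536 in BV-173, 0.180 and 0.259 in NALM-6 and 4.26 and 3.15 in the MLL-AF4 line. STAT5A had 32.4 and 34.1 in BV-173, 39.3 and 67.3 in NALM-6 and 74.2 and 78.9 in the MLL-AF4 line, and the other lines stood 1.89-fold above BV-173. STAT5B had 98.1 and 108 in BV-173, 96.8 and 108 in NALM-6 and 131 and 123 in the MLL-AF4 line, so that the other lines stood 1.11-fold above BV-173, and the 4 shares of BV-173 and NALM-6 overlapped.

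Both BV-173 controls lay above all 4 controls of the other lines for 6 of the 10 genes (CISH, SOCS1, SOCS2, SOCS3, PIM1 and PIM2), as they did for 13.5% of the 13307 genes. Both lay below for 3 (IL7R, STAT5A and CRLF2), against 26.0% of all genes. With the treated groups included, 5 of the 10 genes had all 4 BV-173 groups above the 8 others (PIM1 dropped out), against 6.51% of all genes, and 3 had all 4 below, against 15.2%. Among all genes, the ratio of BV-173 to the other lines was lower than that of SOCS2 for 99.7%, of SOCS3 for 99.2%, of CISH for 97.1%, of PIM2 for 96.4%, of SOCS1 for 95.7% and of PIM1 for 90.8%. With size factors from the median of ratios in place of ppm, the genes below numbered 1 instead of 3. CRLF2 remained, and IL7R and STAT5A dropped out, so their separation depends on the scaling. IL7R was close to the boundary, with its BV-173 scrambled control at 192 ppm and its NALM-6 DMSO control at 196. For STAT5A the BV-173 DMSO control stood at 34.1 ppm and the NALM-6 scrambled control at 39.3.

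**Figure D2:**
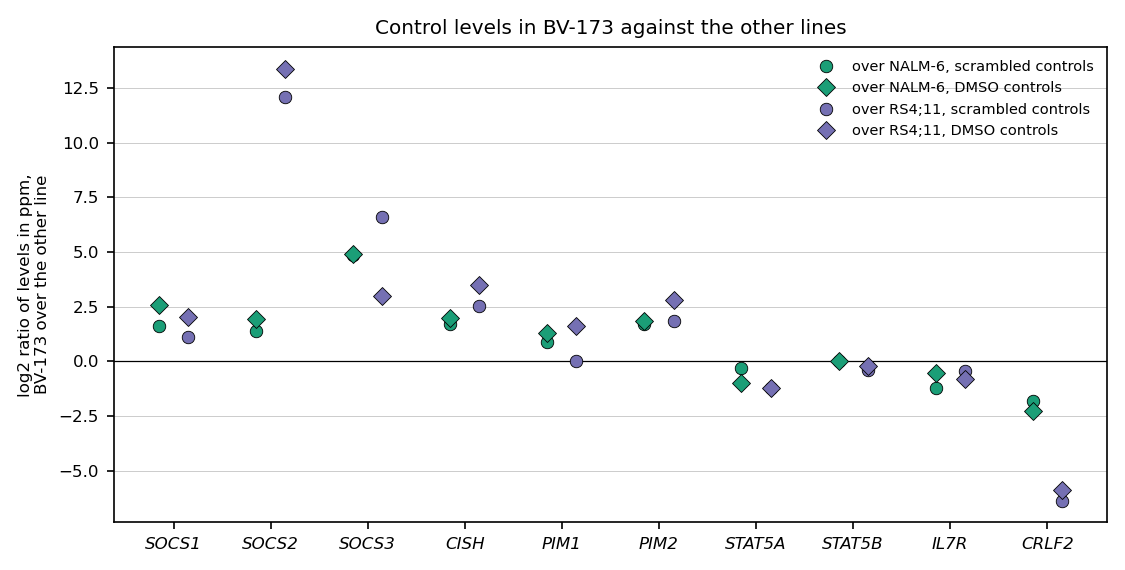
Log2 ratio of the control level in ppm in BV-173 over NALM-6 (green) and over RS4;11 (purple), from the scrambled (circles) and DMSO (diamonds) controls. The feedback and PIM genes lie above 0 for every pair of controls, PIM1 barely so for the scrambled controls against RS4;11, STAT5B lies near 0, and STAT5A, IL7R and CRLF2 lie below 0.

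The scrambled and DMSO controls of a line give a measure of how far a level moves between experiments that differ in transduction, vehicle and day. Over 13307 genes the median difference between these controls was 1.23-fold in NALM-6, 1.15-fold in the MLL-AF4 line and 1.18-fold in BV-173. Several of the 10 genes differed more: IL7R by 2.26-fold and STAT5A by 1.71-fold in NALM-6, and PIM1 by 2.21-fold, PIM2 by 1.58-fold and CISH by 1.54-fold in BV-173. Of all genes, 92.2% differed by less than IL7R in NALM-6 and 93.3% by less than PIM1 in BV-173. SOCS3 differed by 6.57-fold between the RS4;11 controls, at levels of 0.165 and 1.13. STAT5B differed by no more than 1.12-fold in any line.

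Scaled by gene length as well, so that genes can be compared with each other, the most abundant of the 10 genes differed by line. SOCS2 led in the BV-173 controls, with 490 and 618 ppm of the length-scaled sum, followed by PIM2 with 99.9 and 158 and, in the scrambled controls, by IL7R with 85.1. In NALM-6 scrambled cells IL7R and SOCS2 were level, at 215 and 208, whereas in the DMSO control of that line SOCS2 stood at 163 and IL7R at 88.7. In the MLL-AF4 line, IL7R led with 119 and 110, and STAT5B followed with 54.2 and 50.5. STAT5B exceeded STAT5A in every group on this scale, although the near-identical paralogs share reads and their split is uncertain. On the genome (GRCh38.p14) they are neighbours on chromosome 17, at 42287439 to 42311943 for STAT5A (gene ID 6776) and 42199177 to 42288370 for STAT5B (gene ID 6777), and these annotated spans overlap at their ends.

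Of the promoters at hand, that of CISH held matches to the sequence that STAT proteins are known to bind, and it is shown for that reason. The stretch from 250 bases before to 50 bases after the start, on the minus strand of chr3:50611725-50612024 (RefSeq sequence, GRCh38.p14), is printed with each match to TTCNNNGAA in capitals:

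CISH promoter: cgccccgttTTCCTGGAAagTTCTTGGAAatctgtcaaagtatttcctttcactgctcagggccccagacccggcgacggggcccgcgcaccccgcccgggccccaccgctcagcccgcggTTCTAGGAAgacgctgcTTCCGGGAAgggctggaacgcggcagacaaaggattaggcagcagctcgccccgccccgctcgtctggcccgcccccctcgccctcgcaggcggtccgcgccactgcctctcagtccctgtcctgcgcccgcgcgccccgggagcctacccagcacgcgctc

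The motif reads the same on both strands, and its 4 matches start 241, 230, 129 and 112 bases before the start of the gene, as 2 close pairs. Of 35116 promoters of the same length, 7.66% held at least 1 match and 7 promoters (0.0199%) held 4 or more. The limit of 4 was taken from CISH itself, so the last share is a description and no test. RefSeq promoters were at hand for 8 of the 10 genes (11 promoters), not for SOCS2 or CRLF2. None of the other 7 genes had a match in its window, nor did any of the 8 hold the FOXO motif GTAAACA, which 3.42% of all promoters hold. A match is a description of these letters and no measurement of binding.

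**Figure D3:**
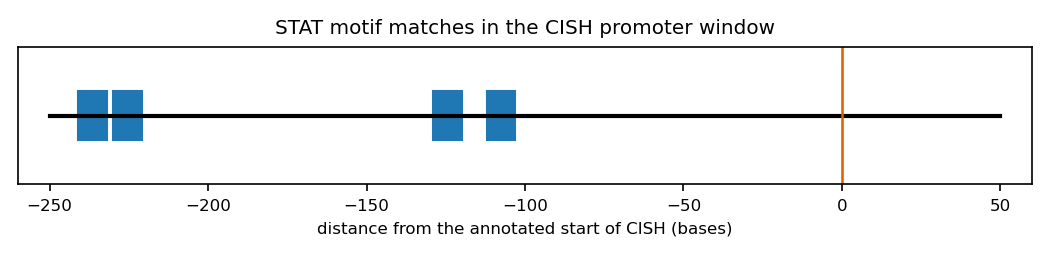
Positions of the 4 matches to the STAT motif (blue boxes, 9 bases each) along the 300-base CISH promoter window, in bases from the annotated start (orange line). The matches form 1 pair that starts 241 and 230 bases and 1 pair that starts 129 and 112 bases before the start.

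CCND3 knockdown was associated with lower PIM1 and higher CISH and PIM2 across the 3 lines. With the lines as replicates (limma, Benjamini-Hochberg adjustment over 13307 genes, 3 ratios per gene), PIM1 fell by a mean log2 ratio of -1.05 ± 0.48 (SD over 3 lines, adjusted p = 0.0243). CISH rose by 0.69 ± 0.24 (adjusted p = 0.0475) and PIM2 rose by 0.69 ± 0.32 (adjusted p = 0.0323), and each of these changes had the same sign in 3 of 3 lines. Thus 2 of the 10 genes were called higher and 1 lower, where 2.00% of all genes were called higher and 4.32% lower.

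The levels behind these values are given with the control first. PIM1 was listed at 511 in scrambled and 212 in shCCND3 cells of NALM-6 (log2 ratio -1.27), at 959 and 368 in RS4;11 (-1.38), and at 991 and 697 in BV-173 (-0.51). The ratio was lower than that of PIM1 for 200 genes in NALM-6, 334 in the MLL-AF4 line and 1041 in BV-173. PIM2 was listed at 610 and 1257 in NALM-6 (log2 ratio 1.04), at 569 and 770 in the MLL-AF4 line (0.44), and at 2099 and 3148 in BV-173 (0.58). CISH was listed at 191 and 349 in NALM-6 (log2 ratio 0.87), at 109 and 146 in the MLL-AF4 line (0.41), and at 652 and 1123 in BV-173 (0.78). For both genes the ratio was smallest in the MLL-AF4 line. In BV-173 the ratio of CISH was exceeded by 186 genes and that of PIM2 by 493.

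These calls rest on few lines. CISH lost its call whichever line was left out, with adjusted p = 0.192 without NALM-6, 0.0889 without RS4;11 and 0.0856 without BV-173 (limma), and also with a pseudocount of 1 (0.0613), under which PIM1 and PIM2 were still called. PIM1 lost it without NALM-6 (adjusted p = 0.0515) and without the MLL-AF4 line (0.0732), and PIM2 without NALM-6 (0.129). Without the trend of the prior variance on the mean level, limma called none of the 13307 genes, CCND3 included (2900 at an unadjusted p under 0.05), and the adjusted p was 0.0766 for PIM1, 0.0815 for CISH and 0.0955 for PIM2.

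Of the receptors, IL7R was listed at 8081 and 4462 in scrambled and shCCND3 cells of NALM-6 (log2 ratio -0.86), at 4906 and 4831 in the MLL-AF4 line (-0.02) and at 3718 and 2535 in BV-173 (-0.55). In NALM-6 its scrambled control (441 ppm) stood 2.26-fold above its DMSO control (196 ppm). That gap was wider than the 1.81-fold lower level under knockdown. The mean knockdown ratio of -0.48 ± 0.42 did not pass (limma, adjusted p = 0.114). Leaving out the MLL-AF4 line, already seen to change least, gave a mean of -0.70, which describes NALM-6 and BV-173 only. Because that line was picked for its own ratio, a p-value of this fit would be no test and is not given. CRLF2 was listed at 3.29 and 5.19 in NALM-6, at 81.1 and 76.7 in the MLL-AF4 line and at 0.997 and 0.996 in BV-173. Only the levels of the MLL-AF4 line exceeded 10, and CRLF2 lies in the region that the X and Y chromosomes share, so that its reads could be split between copies.

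STAT5A was listed at 720 and 982 in NALM-6 (log2 ratio 0.45), at 1412 and 1754 in the MLL-AF4 line (0.31) and at 628 and 777 in BV-173 (0.31). The 3 ratios were close together, with a mean of 0.36 ± 0.08, and did not pass (limma, adjusted p = 0.0987). STAT5B was listed at 1772 and 2178 in NALM-6, at 2487 and 2683 in the MLL-AF4 line and at 1899 and 1896 in BV-173.

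The SOCS genes showed no common direction under knockdown. SOCS1 was listed at 54.4 and 39.1 in NALM-6, at 79.0 and 115 in RS4;11 and at 176 and 178 in BV-173, with log2 ratios of -0.48, 0.54 and 0.01. SOCS2 was listed at 4431 and 5745 in NALM-6, at 2.72 and 2.93 in the MLL-AF4 line and at 12143 and 11240 in BV-173. SOCS3 was listed at 0.537 and 0.699 in NALM-6, at 0.165 and 0.178 in the MLL-AF4 line and at 16.4 and 11.2 in BV-173.

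By a fold of 1.5 or more within a line, with no test, 3 of the 10 genes were higher in NALM-6 shCCND3 cells (CISH, PIM2 and the low CRLF2; 7.82% of all genes), none in the MLL-AF4 line (9.73%) and 1 in BV-173 (CISH; 3.32%). Lower by that fold were 2 in NALM-6 (PIM1 and IL7R; 8.47% of all genes), 1 in the MLL-AF4 line (PIM1; 9.72%) and none in BV-173 (4.78%). PIM2 in BV-173 lay just short, at 149.95% of its control. The median log2 ratio of the 10 genes was 0.38 in NALM-6, 0.11 in the MLL-AF4 line and 0.00 in BV-173, beside 0.01, 0.01 and -0.01 for all listed genes.

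With palbociclib the PIM1 level was further below its control than under knockdown in NALM-6 and the MLL-AF4 line, and closer to it in BV-173. PIM1 was listed at 907 with DMSO and 52.5 with palbociclib in NALM-6, a 17.3-fold lower level (log2 ratio -4.11), and only 11 of the 15614 listed genes had a lower ratio. It was listed at 740 and 23.6 in the MLL-AF4 line, 31.3-fold lower (-4.97), where 78 of 15857 genes had a lower ratio. In BV-173 it was listed at 2186 and 1904 (-0.20), and 30.1% of genes had a lower ratio. The mean of -3.09 ± 2.54 did not pass (limma, adjusted p = 0.0581). Leaving out BV-173, the line already seen to change least, gave a mean of -4.54. Because BV-173 was picked for its own ratio, a p-value of that fit would be no test and is not given. That fit describes NALM-6 and the MLL-AF4 line and does not support a change over all lines. The difference between BV-173 and the other lines was not tested, since each line has 1 ratio.

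PIM2 rose with palbociclib. It was listed at 928 with DMSO and 1688 with palbociclib in NALM-6 (log2 ratio 0.86), at 479 and 632 in the MLL-AF4 line (0.40) and at 3295 and 4529 in BV-173 (0.46). In BV-173 the 1.37-fold change of PIM2 was smaller than the 1.58-fold gap between its scrambled and DMSO controls. In the other lines the change was larger than that gap. The mean of 0.57 ± 0.25 passed (limma, adjusted p = 0.0472), with PIM2 higher in 3 of 3 lines. It was the only one of the 10 genes called, against 5.58% of all genes called higher, and none was called lower, against 9.19% (at an unadjusted p under 0.05 there were 2, PIM1 and PIM2). The call was lost whichever line was left out (adjusted p = 0.160 without NALM-6, 0.0842 without the MLL-AF4 line and 0.0846 without BV-173), with a pseudocount of 1 (0.0511), with the median log2 ratio subtracted (0.0519) and without the trend (0.106).

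CISH was listed at 258 with DMSO and 271 with palbociclib in NALM-6 (log2 ratio 0.07), at 91.7 and 109 in RS4;11 (0.25) and at 1001 and 1927 in BV-173 (0.95). The ratio in BV-173 was 1.93-fold, beside 1.72-fold under knockdown, and the mean over lines of 0.42 ± 0.46 did not pass (limma, adjusted p = 0.245). IL7R was past 1.5-fold in the same line alone. It was listed at 2624 and 964 in BV-173, a 2.72-fold lower level, but at 3809 and 3780 in NALM-6 and at 4756 and 4603 in the MLL-AF4 line. In BV-173 2.23% of genes had a lower ratio than IL7R. Over the lines its mean was -0.50 ± 0.82 (adjusted p = 0.281).

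SOCS1 was listed at 33.9 and 56.4 in NALM-6 (log2 ratio 0.74), at 50.7 and 44.2 in the MLL-AF4 line and at 199 and 216 in BV-173. SOCS2 was listed at 3982 and 4590 in NALM-6, at 1.45 and 4.61 in the MLL-AF4 line and at 15119 and 10106 in BV-173, where its log2 ratio of -0.58 lay just inside the 1.5-fold limit. SOCS3 was listed at 0.295 and 0.384 in NALM-6, at 1.13 and 0.520 in the MLL-AF4 line and at 8.72 and 17.3 in BV-173. CISH, SOCS3 and SOCS2 differed in direction in BV-173, where the first 2 were higher with palbociclib and SOCS2 was lower.

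The STAT5 genes varied little with palbociclib. STAT5A was listed at 1309 and 1135 in NALM-6, at 1560 and 1657 in the MLL-AF4 line and at 657 and 680 in BV-173. STAT5B was listed at 2100 and 2151, at 2441 and 2316 and at 2081 and 2154 in the same order. Their mean log2 ratios were -0.02 ± 0.16 and 0.00 ± 0.07. CRLF2 was listed at 5.05 and 8.59 in NALM-6, at 62.4 and 60.8 in the MLL-AF4 line and at 1.03 and 0.903 in BV-173.

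By the 1.5-fold limit, 3 of the 10 genes were higher with palbociclib in NALM-6 (SOCS1, PIM2 and CRLF2; 21.4% of all genes), 1 in the MLL-AF4 line (SOCS2, at a level under 5; 16.7%) and 2 in BV-173 (SOCS3 and CISH; 13.6%). Lower were 1 in NALM-6 (PIM1; 14.9% of all genes), 2 in the MLL-AF4 line (PIM1 and the low SOCS3; 15.0%) and 1 in BV-173 (IL7R; 11.9%). These counts are near the share of all genes. The median log2 ratio of the 10 genes was 0.14 in NALM-6, -0.04 in the MLL-AF4 line and 0.05 in BV-173, beside 0.06, 0.01 and 0.04 for all listed genes.

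**Figure D4:**
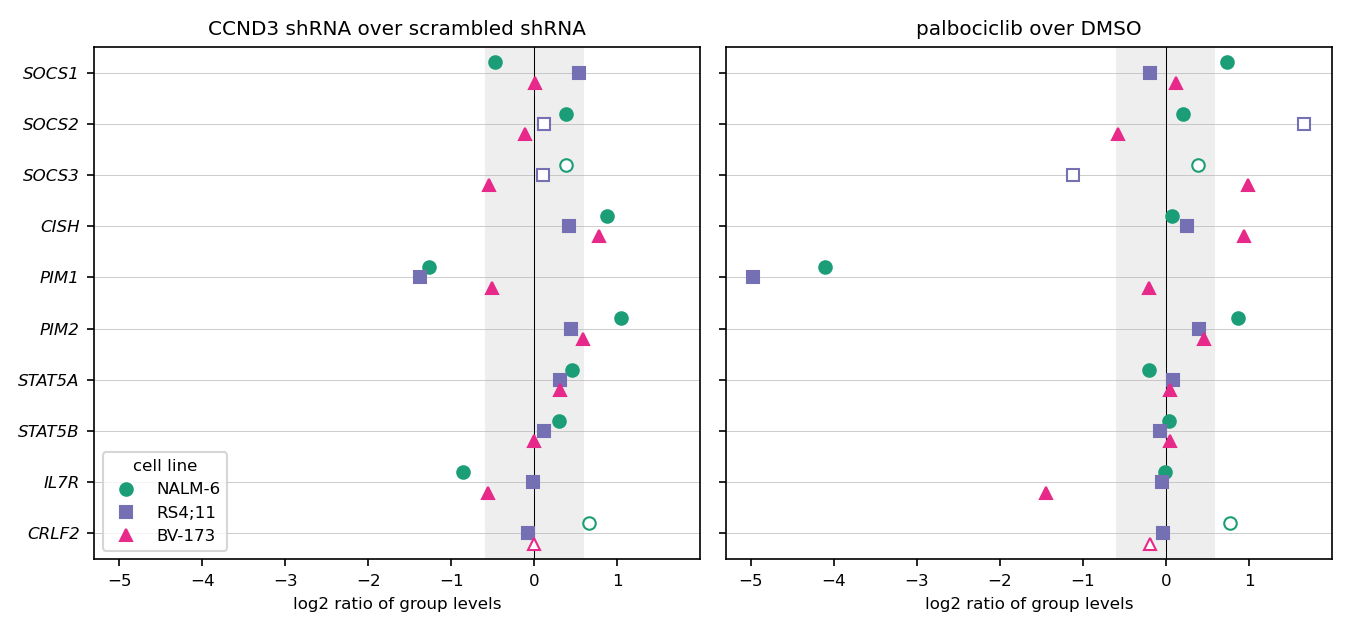
Log2 ratio of treated over control level for each gene in NALM-6 (circles), RS4;11 (squares) and BV-173 (triangles), for CCND3 shRNA (left) and palbociclib (right). The grey band marks less than 1.5-fold either way, and open symbols mark a mean level of the pair under 10. PIM1 lies left of 0 in all 6 comparisons and PIM2 right of 0 in all 6, and the palbociclib ratios of PIM1 are -4.11 and -4.97 in NALM-6 and RS4;11 and -0.20 in BV-173.

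Within each line the knockdown ratio was then set against the palbociclib ratio. None of the 10 genes passed in this comparison, where 3.58% of all genes were called higher and 1.30% lower (limma). At an unadjusted p under 0.05 there were 2, PIM1 and STAT5A. The PIM1 ratio was higher under knockdown by 2.04 ± 2.07 on the log2 scale (limma, adjusted p = 0.117). Without BV-173, already seen to have the smallest difference, the mean was 3.21, which describes the remaining lines only and is given without a p-value for that reason. The STAT5A ratio was higher under knockdown by 0.38 ± 0.24 (adjusted p = 0.148). The PIM2 ratios of the treatments were close in every line, with a mean difference of 0.12 ± 0.07.

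The remaining pathway genes were taken from 4 lists. Their counts stand beside the shares of all genes called by limma. These were 2.00% higher and 4.32% lower under knockdown, and 5.58% higher and 9.19% lower with palbociclib. For the difference between the treatments they were 3.58% higher and 1.30% lower. Of the 9 JAK kinases and other STATs, all tested, 1 rose and none fell under knockdown, and 3 rose and none fell with palbociclib. STAT6, which transmits IL-4 signals, rose under both, by 0.57 ± 0.27 (limma, adjusted p = 0.0383) and by 0.89 ± 0.12 (adjusted p = 0.0106). JAK3, the kinase bound to the common gamma chain, rose with palbociclib by 0.60 ± 0.17 (adjusted p = 0.0343), and STAT2, a mediator of interferon signals, by 0.56 ± 0.17 (adjusted p = 0.0422). The list's median was 0.26 under knockdown and 0.39 with palbociclib, beside 0.00 and 0.04 for all genes.

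Of 19 further cytokine receptors and ligands 15 were tested, and 2 rose under each treatment with none falling. Under knockdown these were IL9R (1.32 ± 0.84, limma, adjusted p = 0.0497) and IL3RA, the alpha chain of the IL-3 receptor (0.94 ± 0.33, adjusted p = 0.0433). IL3RA was also past 1.5-fold in all 3 lines, with log2 ratios of 0.62, 1.28 and 0.91. With palbociclib they were the common beta chain CSF2RB (0.84 ± 0.43, adjusted p = 0.0328) and the common gamma chain IL2RG (0.57 ± 0.13, adjusted p = 0.0293). IL3RA and CSF2RB form 1 receptor, and IL7R pairs with IL2RG. Like CRLF2, the genes IL3RA, IL9R and CSF2RA lie in regions that the X and Y chromosomes share, so their reads could be split between copies. The list's median was 0.09 and 0.16.

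Of 16 other negative regulators none passed under knockdown (1, SH2B3, at an unadjusted p under 0.05). With palbociclib the phosphatase PTPN6 (SHP-1) rose by 0.82 ± 0.25 (limma, adjusted p = 0.0176) and the adaptor SH2B3 (LNK), which restrains JAK2, fell by a mean log2 ratio of -0.65 ± 0.04 (adjusted p = 0.0180). SH2B3 was also the gene of this list whose knockdown and palbociclib ratios differed, by 0.94 ± 0.24 (adjusted p = 0.0128). With palbociclib it was listed at 1232 and 809 in NALM-6, at 2246 and 1392 in RS4;11 and at 2429 and 1537 in BV-173. The list's median was 0.02 under knockdown and -0.15 with palbociclib.

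Of 12 other candidate STAT5 targets 10 were tested, with 1 higher and 1 lower under knockdown and 2 higher with palbociclib. BCL2, an inhibitor of apoptosis, fell under knockdown by a mean log2 ratio of -0.80 ± 0.15 (limma, adjusted p = 0.0185), from 938 to 482 in NALM-6, from 4332 to 2544 in the MLL-AF4 line and from 1050.2 to 662 in BV-173. With palbociclib it did not pass (-0.04 ± 0.15), and the difference between the treatments did (-0.76 ± 0.17, limma, adjusted p = 0.0193). In BV-173 the BCL2 controls stood far apart, at 54.3 ppm (scrambled) and 106 ppm (DMSO), beside 31.9 ppm in shCCND3 cells. That gap between controls was wider than the knockdown change. In NALM-6 the 3 shares were 51.3, 38.3 and 26.7 ppm in the same order, and in the MLL-AF4 line 227, 222 and 131. The shCCND3 share was thus below both controls in each line. LTB, which encodes lymphotoxin beta, rose under both, by 2.25 ± 1.16 (limma, adjusted p = 0.0225) and by 3.01 ± 0.95 (adjusted p = 0.00938). Its scrambled and DMSO control levels were low in NALM-6 (7.09 and 2.74) and the MLL-AF4 line (12.7 and 16.6), beside 547 and 536 in BV-173. CCND2, the gene of cyclin D2, rose with palbociclib by 2.09 ± 0.91 (adjusted p = 0.0195), although in the MLL-AF4 line only from 1.40 to 4.69. The list's median was 0.07 and 0.04.

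Of the 16 calls of these 4 lists, that of LTB with palbociclib held under all 7 alternatives. Without the trend, the 5 knockdown calls were lost (limma, adjusted p = 0.0742 to 0.119), 6 of the 9 palbociclib calls (0.0588 to 0.0950) and both calls of a difference (0.114 and 0.128). Without NALM-6, STAT6, IL3RA and IL9R lost their knockdown calls (adjusted p = 0.0522 to 0.136), BCL2 its difference (0.0775), and all palbociclib genes but PTPN6 and LTB lost theirs (0.0517 to 0.152). Without the MLL-AF4 line, STAT6, IL3RA and IL9R lost the knockdown call (0.154 to 0.246), BCL2 its difference (0.0732), and JAK3, STAT2, IL2RG, PTPN6 and SH2B3 the palbociclib call (0.0668 to 0.157). With a pseudocount of 1, STAT6, IL3RA and IL9R lost the knockdown call (0.0517, 0.0585 and 0.0698). Without BV-173, IL3RA lost the knockdown call (0.0759), and STAT2, CSF2RB and PTPN6 the palbociclib call (0.0519 to 0.0645).

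**Figure D5:**
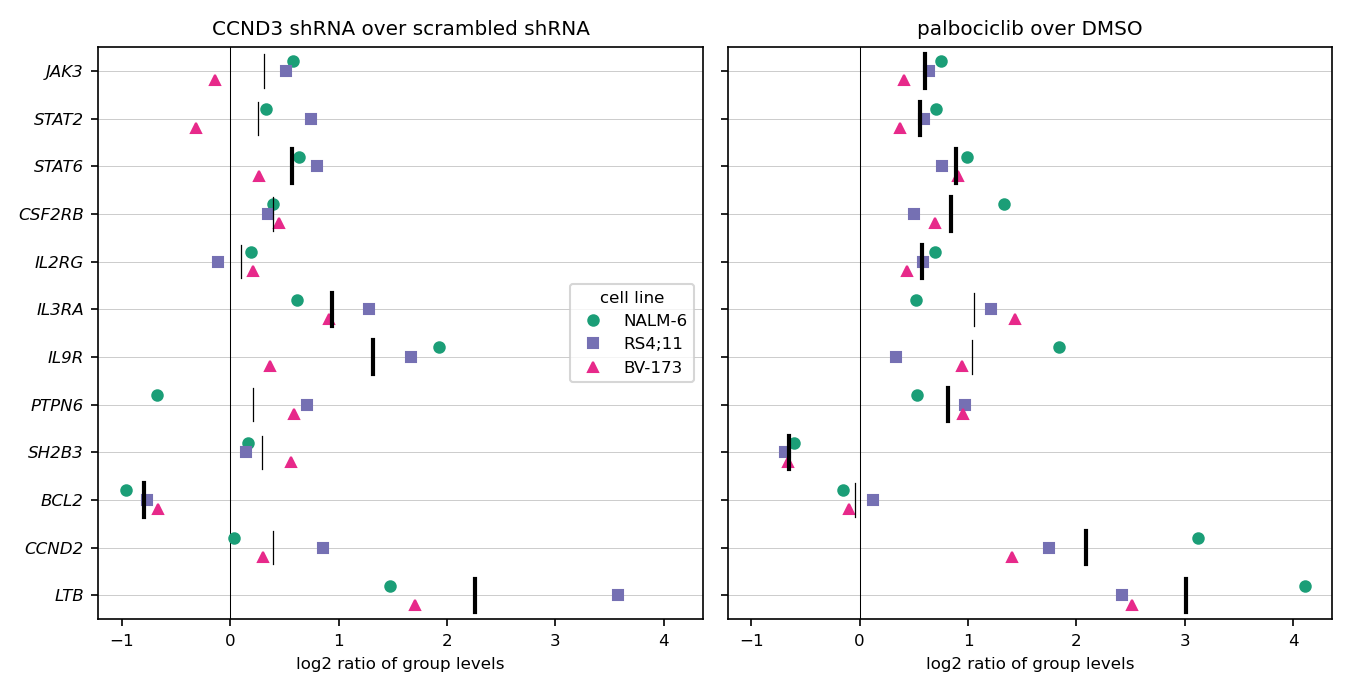
Log2 ratios of the 12 further JAK-STAT pathway genes called in any of the 3 fits, by line (circles NALM-6, squares RS4;11, triangles BV-173), for CCND3 shRNA (left) and palbociclib (right). Black bars mark the mean over the 3 lines and are thick where it passed. BCL2 lies below 0 in 3 of 3 lines under knockdown and near 0 with palbociclib, and SH2B3 lies below 0 in 3 of 3 lines with palbociclib.

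Some genes of these lists also set the BV-173 controls apart from the other lines. Above were LTB (28.3 and 27.8 ppm in BV-173, at most 0.841 elsewhere), CSF2RA, TNFRSF13B, CCND2, IL4R, CBLB and IL15RA, with gaps to the nearest other control of 33.1-fold, 11.3-fold, 3.24-fold, 2.44-fold, 1.55-fold, 1.28-fold and 1.13-fold. Below were PTPN1, a phosphatase that acts on JAK2 (32.8 and 27.4 ppm, at least 125 elsewhere, a gap of 3.82-fold), and, with gaps of 1.13-fold to 1.98-fold, PIAS3, MCL1, CBL, JAK2, IFNAR1, STAT2 and STAT6.

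Over the 12 groups, the genes whose log2 shares followed CISH most closely among 11800 genes were FRMD4A (Pearson r = 0.977), PIM2 (0.972) and MAN1A1 (0.971). For SOCS2 they were NAXD (0.997), AGPAT3 (0.996) and CHFR (0.993). The 12 points are 4 groups of each of 3 lines, so the groups of a line share its cells and its level. FRMD4A ranged from 18.7 to 36.5 ppm in BV-173, from 2.12 to 3.06 in NALM-6 and from 0.712 to 1.15 in the MLL-AF4 line. PIM2 was the only one of the 10 genes among these.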

How the data were processed

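RNA from 34 samples was enriched with oligo dT and sequenced by BGI. Per the labels and the submitters' processing notes, the reads passed through SOAPnuke (filtering), Bowtie2 (mapping, hg38) and RSEM (level estimates), and the authors used DESeq2 for the pairs of groups. Versions are not given in the sources used here. The deposited tables hold 1 signal per gene and group, called a level here, summarised over samples and scaled within each pair, with no value of 0. The authors' fold changes, p-values and regulation calls in the same tables were not used. Whether the counting used strand is not given in the sources used here, so reads of a gene and an antisense partner cannot be told apart.

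Log2 ratios were formed within a table and called at 1.5-fold with no test. Mean ratios over the 3 lines, which served as replicates, were tested with limma 3.58.1 (two-sided moderated test, prior variance with a trend on mean level) in R 4.3.3 over the 13307 genes listed in all 6 tables, with Benjamini-Hochberg adjustment and a threshold of 0.05. The p-values measure the spread between lines, not between samples. The procedure was run on simulated data with independent noise. The planted shifts were larger than the mean ratios called here for the 10 genes, so that run does not bear on shifts of this size. Levels across lines are in ppm of a group's sum. Alternatives were a fold of 2, a pseudocount of 1, a mean level of at least 10, subtracting the median log2 ratio, size factors, no trend, 1 kind of control, and leaving out a line. Promoters came from RefSeq (GRCh38.p14). All 10 genes are described with every value. From the other lists, genes past 1.5-fold in all 3 lines of a treatment or called by limma were named (at most 6 per list and treatment), and at most 3 per list and direction with the widest gap between BV-173 and the other controls. For CISH and SOCS2 the 3 genes with the closest pattern were named. The genes and lists were chosen with earlier results of these data known. Python 3.11.15, numpy 2.4.6, pandas 2.3.3 and matplotlib 3.10.9 were used.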

Additional observations from a re-analysis of the deposited data

Results flagged for a closer look

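SOCS3 was past 1.5-fold in opposite directions in 2 lines under palbociclib. Its log2 ratio was 0.98 in BV-173, from a level of 8.72 to 17.3, and -1.12 in RS4;11, from 1.13 to 0.520. The difference between the lines was not tested, and the RS4;11 levels were so low that the scrambled control of that line, at 0.165, lay 6.57-fold from the DMSO control in ppm.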

How the results depend on the processing

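No paired analysis was possible because the tables give 1 value per group, with no column for a replicate number; for the same reason no sample could be left out. The lines were left out instead. Depth is unknown, so nothing can be said of how many reads stand behind the levels under 10. The cause of the changes listed here was not tested. With a fold of 2, the members higher under knockdown numbered 1 in NALM-6 and 0 in BV-173, those lower 1 in NALM-6, and those higher with palbociclib 0 in NALM-6 and 0 in BV-173. With the median log2 ratio subtracted, 2 were higher under knockdown and 2 lower with palbociclib in BV-173. With a mean level of at least 10, 0 were higher and 1 lower with palbociclib in RS4;11, and with a pseudocount of 1, 1 was lower there. With size factors, 1 gene had both BV-173 controls below the others. The share of all genes was not computed under these alternatives, so the counts describe the 10 genes alone.

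Without the trend, limma called 0 genes under knockdown (2900 at an unadjusted p under 0.05), 836 with palbociclib and 0 for their difference (2769 at an unadjusted p under 0.05), against 841, 1965 and 650. It then called 0 of the 10 genes under either treatment. With a pseudocount of 1 or with the median subtracted, 0 of the 10 were called with palbociclib. Leaving out 1 line gave 281 to 1212 genes under knockdown, 301 to 1383 with palbociclib and 211 to 485 for the difference, and 0 to 2, 0 to 1 and 0 to 1 of the 10 genes. Over all genes the fewest came without RS4;11 under knockdown and without NALM-6 for the others. Of the 10 genes under knockdown, 0 were called without NALM-6 and 2 without RS4;11 or without BV-173.

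No member that was called changed direction under any of the alternatives run. Mean log2 ratios that changed sign belonged to uncalled genes. With the median subtracted, STAT5B with palbociclib was -0.035, and with a pseudocount of 1 the difference for CRLF2 was -0.028. With 1 line left out, the knockdown means ranged from -0.23 to 0.28 for SOCS1, -0.00069 to 0.24 for SOCS2, -0.22 to 0.24 for SOCS3 and -0.041 to 0.33 for CRLF2. The palbociclib means ranged from -0.040 to 0.43 for SOCS1, -0.19 to 0.94 for SOCS2, -0.37 to 0.68 for SOCS3, -0.078 to 0.068 for STAT5A, -0.021 to 0.042 for STAT5B and -0.12 to 0.36 for CRLF2. The differences ranged from -0.66 to 0.32 for SOCS1, -0.69 to 0.32 for SOCS2, -0.77 to 0.61 for SOCS3, -0.41 to 0.46 for IL7R and -0.077 to 0.075 for CRLF2.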

Other observations

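BCL6, a transcriptional repressor in B cells and 1 of the listed candidate STAT5 targets, passed in no fit over the lines. It is named here after its values were seen. Under knockdown it was listed at 1043 and 269 in NALM-6, at 2241 and 2545 in RS4;11 and at 798 and 1322 in BV-173. With palbociclib it was listed at 293 and 266 in NALM-6, at 2796 and 3538 in RS4;11 and at 313 and 1455 in BV-173. The NALM-6 controls of the shRNA and the palbociclib experiment thus differed more than the palbociclib and DMSO groups of that line did.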
